A study of Mus musculus with 24 samples.

Results

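Acute-phase proteins are plasma proteins whose level changes within hours of an injury, and most of them are made by the liver. Interleukin-6 acting through STAT3, and interleukin-1 and TNF acting through NF-kB and C/EBP factors, switch their genes on, and glucocorticoids add to the response. Several of these genes are also transcribed outside the liver, for example in fat, macrophages and endothelium. Here 8 of them were followed in mouse gastrocnemius, a calf muscle that lies away from the burn wound: Lcn2, Serpina3n, Orm1, Orm2, Orm3, Hp, Saa3 and Cp, 8 of the 55401 genes in the count table. They were chosen from their measured burn responses in these same libraries, so their burn against sham values are a description and nothing is read from how many of them were called there. For the members, the comparisons between ages are the ones tested. Of these, young sham against adult sham is the one least touched by that choice. Young burn against adult burn and the interaction use the burn values that chose the genes, so their p-values are not independent of it.

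The mice were male C57BL6 animals in 4 groups of 3, and each mouse gave 1 mRNA library from its gastrocnemius 24 h after the procedure. Young burn mice arrived at 4 weeks of age and were scalded at 5 weeks on the back and belly, 25% of the body surface. Adult burn mice arrived at 10 weeks and received the same burn at 11 weeks. Young sham and adult sham mice of the matching ages were anaesthetised and given analgesic but were not burned. Burned mice also received lactated Ringer's solution, which sham mice did not, so the burn and the fluid cannot be told apart.

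Total counts per library ranged from 4392605 to 5688512, and CPM are counts scaled to the library total with its TMM factor, on which 1 count was worth 0.179 CPM in young burn replicate 1 and 0.212 CPM in adult sham replicate 3. Young burn replicate 2 stood apart from the rest: its root mean square log2 distance from the mean of the other libraries of its group was 0.667, against 0.324 to 0.454 for the other 11 libraries. It also had the highest CPM of 7 of the 8 genes. The members' fitted values are therefore given in all 12 libraries and, where they moved, in the 11 without young burn replicate 2. Acta1 and Ckm, genes of the contractile and energy apparatus of skeletal muscle, had group means of 25900 to 34800 CPM and 5670 to 8220 CPM, as the labelled tissue should have.

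The 3 Orm genes, which code for orosomucoids (alpha-1-acid glycoproteins, plasma carriers of basic drugs and lipids), lie side by side on the forward strand of chromosome 4 in GRCm38, with Orm1 at chr4:63344560-63348163, Orm3 at chr4:63356162-63359511 and Orm2 at chr4:63362449-63365878. Their coding sequences are 89.9% identical between Orm1 and Orm2, 88.3% between Orm2 and Orm3 and 86.4% between Orm1 and Orm3. The first 75 coding bases of each (Gencode M21 transcripts) are shown because reads can be given to 1 of the 3 genes only through such differences; capitals mark the 15 positions at which the 3 genes are not all alike.
Orm1: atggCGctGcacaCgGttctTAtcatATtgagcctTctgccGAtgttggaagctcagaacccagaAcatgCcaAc
Orm2: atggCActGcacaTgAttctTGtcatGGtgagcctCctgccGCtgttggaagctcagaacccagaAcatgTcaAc
Orm3: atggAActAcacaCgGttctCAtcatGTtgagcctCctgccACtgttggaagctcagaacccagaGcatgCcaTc
Of all 75-base windows of the Orm1 transcript, 13.8% were found unchanged in a transcript of another gene, in each case Orm2, against 14% for Orm2 (shared with Orm1 or Orm3) and 0.143% for Orm3. The same share was 1.46% for Serpina3n, 0.922% for Saa3 and 0.0% for Lcn2, Hp and Cp. Reads that fall in shared windows and match 2 genes were left out by the authors' counting, so the counts of Orm1 and Orm2 are somewhat low and uncertain in that part.

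RefSeq start sites on GRCm38.p6 were at hand for 6 of the 8 genes, all but Orm1 and Hp. The stretches from 200 to 51 bases before the start of Orm3, Orm2, Saa3 and Serpina3n are printed on the strand of the gene because they hold letters that C/EBP or NF-kB factors, named above, are known to prefer. Capitals mark TTGCNNAA (C/EBP-like) and GGNNTTTCC (NF-kB-like), both searched on both strands.
Orm3, chr4:63355958-63356107, forward strand: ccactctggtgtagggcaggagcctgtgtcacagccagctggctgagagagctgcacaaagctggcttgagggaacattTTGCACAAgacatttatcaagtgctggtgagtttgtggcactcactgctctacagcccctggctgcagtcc
Orm2, chr4:63362249-63362398, forward strand: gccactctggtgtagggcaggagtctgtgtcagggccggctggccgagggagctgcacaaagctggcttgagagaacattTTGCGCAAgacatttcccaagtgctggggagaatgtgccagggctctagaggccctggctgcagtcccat
Saa3, chr7:46715727-46715876, reverse strand: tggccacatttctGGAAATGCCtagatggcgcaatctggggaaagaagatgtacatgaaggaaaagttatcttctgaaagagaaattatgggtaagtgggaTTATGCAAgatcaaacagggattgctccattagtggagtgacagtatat
Serpina3n, chr12:104406508-104406657, forward strand: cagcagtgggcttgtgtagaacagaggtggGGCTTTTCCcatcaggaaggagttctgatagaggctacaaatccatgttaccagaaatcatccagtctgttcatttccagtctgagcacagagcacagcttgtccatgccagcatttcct
Orm3 held TTGCACAA from 121 to 114 bases before its start and Orm2 held TTGCGCAA from 120 to 113 bases before its start. Saa3 held TTGCATAA on the opposite strand 99 to 92 bases before its start and GGCATTTCC on the opposite strand 187 to 179 bases before it. Serpina3n held GGCTTTTCC from 170 to 162 bases before its start, and Lcn2 held TTGCTCAA from 216 to 209 bases before its start. Cp had a C/EBP-like and an NF-kB-like match in the window of its second start only. Over all 32851 windows of 250 bases before a start, 9.56% held the C/EBP-like letters and 4.93% the NF-kB-like letters. The STAT-like letters TTCNNNGAA, which 7.02% of all windows held, were not in these windows of the 6 genes. The windows of Orm2 and Orm3 were 89.0% identical over 245 aligned bases. A match describes letters in a sequence and was not tested as a binding site.

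Lcn2 (ENSMUSG00000026822.14, chr2:32384633-32388252) codes for lipocalin-2, which binds bacterial iron carriers. Its counts were 6, 4 and 4 in adult sham, 34, 90 and 53 in adult burn, 3, 7 and 2 in young sham and 55, 142 and 69 in young burn. In each age every burned mouse lay above every sham mouse, and the largest sham count was 7 against a smallest burn count of 34. The levels were 0.999 ± 0.212 CPM in adult sham, 10.6 ± 5.32 in adult burn, 0.879 ± 0.482 in young sham and 16.6 ± 8.33 in young burn (SD, n = 3). The fitted log2 fold change with burn was 3.37 (SE 0.55) in adults and 4.16 (SE 0.55) in young mice, and 3.36 (SE 0.45) and 3.69 (SE 0.49) in the 11 libraries. SE, here and below, is the absolute log2 fold change divided by the square root of the F of the edgeR quasi-likelihood test. It only approximates a standard error.

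Serpina3n (ENSMUSG00000021091.8, chr12:104406729-104414329) codes for a secreted inhibitor of serine proteases such as granzyme B and elastase. Its counts were 25, 30 and 14 in adult sham, 167, 173 and 125 in adult burn, 19, 11 and 9 in young sham and 60, 306 and 155 in young burn. Both burn groups lay wholly above their sham groups. The adult burn mice were close together, at 27.5 ± 4.06 CPM, whereas the young burn mice spread widely, at 32.8 ± 22.6 CPM (SD, n = 3), from 10.8 to 55.9 CPM. The sham levels were 4.98 ± 1.92 CPM in adults and 3.02 ± 1.40 CPM in young mice (SD, n = 3). The fitted log2 fold change was 2.47 (SE 0.50) in adults and 3.45 (SE 0.54) in young mice, and it was 2.82 (SE 0.44) in young mice without replicate 2.

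Orm1 (ENSMUSG00000039196.2) was read in all 6 burned mice and in 3 of the 6 sham mice. Its counts were 6, 0 and 1 in adult sham, 24, 52 and 53 in adult burn, 0, 5 and 0 in young sham and 5, 96 and 11 in young burn. The adult groups were apart, whereas young burn replicate 1 had the same 5 counts as young sham replicate 2. The levels were 7.75 ± 3.24 CPM in adult burn and 6.89 ± 9.24 CPM in young burn (SD, n = 3), and the young burn mean was 1.57 CPM without replicate 2. The fitted log2 fold change with burn was 3.88 (SE 1.17) in adults and 4.11 (SE 1.27) in young mice, the latter being 1.97 (SE 1.06) in the 11 libraries. Single libraries decided these values: the adult one was 5.85 without adult sham replicate 1, which held 6 of the 7 sham counts, and the young one was 8.12 without young sham replicate 2, when both remaining sham libraries were at 0 and the fitted value is no bound.

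Orm3 (ENSMUSG00000028359.4) had 0 counts in all 6 sham libraries, 5, 13 and 28 counts in adult burn and 4, 25 and 2 in young burn. It was thus read in every burned mouse of either age. With each sham group set at 3 counts and the burn counts taken as read, the Orm3 ratio was 12.7 in adults and 8.52 in young mice. Without young burn replicate 2 it was 2.51 in young mice. These ratios leave out the counting error of the burn groups and the spread between mice, so the true ratios can be smaller. Orm3 passed the filter on low counts only through the burn groups, and in the 11 libraries through adult burn alone. Its passing therefore carries no information about its direction. Orm2 (ENSMUSG00000061540.3) gave 1 and 3 counts in young burn replicates 1 and 2 and 0 in the other 10 libraries. It was not detectable at this depth in adult burn, where 0 counts allow up to 3 counts over the group.

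Saa3 (ENSMUSG00000040026.8, chr7:46711998-46715700) codes for a serum amyloid A made mainly outside the liver in the mouse. It had 0, 1 and 0 counts in adult sham, 5, 4 and 4 in adult burn, 0, 2 and 0 in young sham and 1, 17 and 3 in young burn. The adult burn mice were uniform at a low level, 0.768 ± 0.0618 CPM (SD, n = 3), and the young burn mice were not. The ratio of the normalised counts was 10.8 in adults (95% exact counting interval 1.61 to 457) and 8.65 in young mice (2.12 to 76.1), and it was 2.51 in young mice without replicate 2 (0.36 to 27.7). These intervals cover counting error only. Saa3 and Orm2 did not pass the filter on low counts and were not fitted.

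Hp (ENSMUSG00000031722.10, chr8:109575128-109579172) codes for haptoglobin, which binds free haemoglobin. Its counts were 95, 7 and 19 in adult sham, 125, 57 and 149 in adult burn, 47, 44 and 12 in young sham and 39, 200 and 69 in young burn. The groups overlapped in both ages, because adult sham replicate 1 lay above adult burn replicate 2 and young burn replicate 1 lay below 2 of the young sham mice. The levels were 8.42 ± 9.80 CPM in adult sham, 19.6 ± 8.75 in adult burn, 7.76 ± 4.38 in young sham and 19.2 ± 15.4 in young burn (SD, n = 3). The fitted log2 fold change was 1.20 (SE 0.72) in adults and 1.30 (SE 0.74) in young mice, and 0.43 (SE 0.70) in young mice without replicate 2. Leaving out adult sham replicate 1 put the adult value at 2.78, and leaving out replicate 2 of that group put it at 0.72.

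Cp (ENSMUSG00000003617.16, chr3:19957054-20009145) codes for ceruloplasmin, a copper-carrying ferroxidase. Its counts were 106, 72 and 80 in adult sham, 137, 173 and 111 in adult burn, 107, 99 and 82 in young sham and 148, 215 and 154 in young burn. Young burn lay above young sham in every mouse, by a small margin, and the adult groups overlapped after scaling. The fitted log2 fold change was 0.44 (SE 0.20) in adults and 0.56 (SE 0.20) in young mice, and 0.41 (SE 0.19) in young mice without replicate 2. The end of Cp overlaps Hps3 on the other strand, and no source used here says whether counting used the strand, so reads from that stretch are uncertain.

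**Figure D1:**
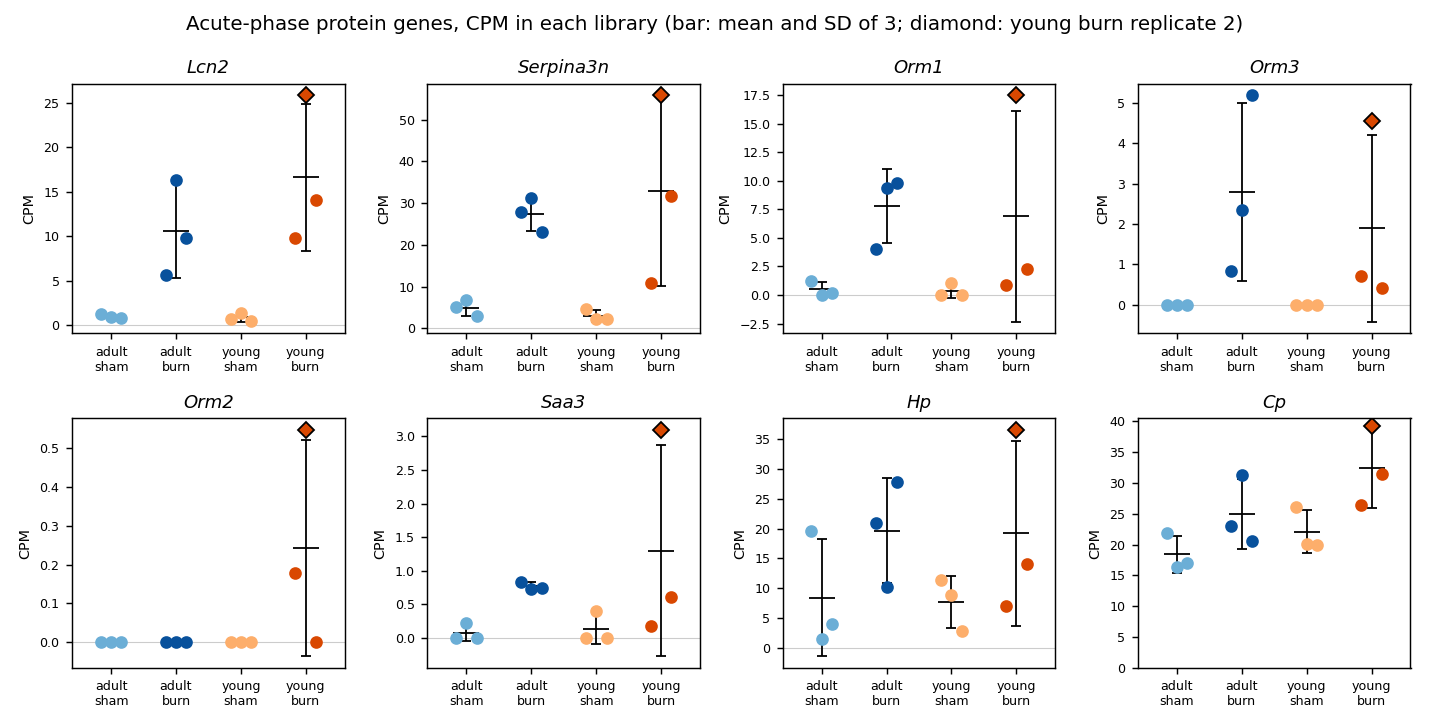
CPM (vertical axis, linear, 1 scale per gene) of the 8 acute-phase genes in each of the 12 libraries, by group; bars give the mean and SD of 3 mice and the diamond is young burn replicate 2. Lcn2 and Serpina3n are higher in every burned mouse than in every sham mouse of the same age, Orm3 is at 0 in all 6 sham mice, and Hp overlaps between the groups.

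The burn comparisons chose these genes, so how many of them passed the threshold there (edgeR quasi-likelihood test, Benjamini-Hochberg adjusted p under 0.05) was fixed in part by that choice, and nothing is read from it. In adult burn against adult sham, 0 of the 6 fitted members were called in the 12 libraries, where 0.00806% of all genes were, with 853 genes at an unadjusted p under 0.05 and 7 genes called by DESeq2, of which 2 were members. In the 11 libraries 4 were called (Lcn2, Serpina3n, Orm1 and Orm3), and the share of all genes was 0.909%. Of these, Lcn2, Orm1 and Orm3 passed the filter only through the burn groups. In young burn against young sham, Lcn2 and Serpina3n were called in both sets of libraries, with 0.0645% of all genes in the 12 and 0.664% in the 11. There 2519 genes had an unadjusted p under 0.05 in the 12. On the same 12 libraries DESeq2 called 443 genes and edgeR with library-size scaling 615, so the share over all genes depends strongly on the method. Of the same 6 fitted members, 4 lay higher without overlap in adult burn (Lcn2, Serpina3n, Orm1 and Orm3) and 4 in young burn (Lcn2, Serpina3n, Orm3 and Cp), and the shares of all genes tested were 10.3% and 10.5%. Saa3, which was not fitted, also lay higher without overlap in adult burn.

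To set genes side by side, levels were divided by kilobases of exon, taken as the union of all annotated exons of a gene. This union was 775 bases for Orm1, 2623 for Lcn2 and 9566 for Cp. Where it is longer than the transcript present in muscle, the level comes out too low, so the order between genes is only approximate. On this scale the order of levels differed between sham and burned muscle. In adult sham Hp stood first at 5.24 ± 6.10 CPM per kb, followed by Serpina3n at 2.41 ± 0.931, Cp at 1.92 ± 0.320, Orm1 at 0.625 ± 0.856, Lcn2 at 0.381 ± 0.0807 and Saa3 at 0.029 ± 0.0502 (SD, n = 3), with Orm2 and Orm3 at 0. Neighbours from Hp to Cp, and Orm1 and Lcn2, did not differ beyond their spread. In adult burn the order was Serpina3n at 13.3 ± 1.97 CPM per kb, Hp at 12.2 ± 5.45, Orm1 at 10.0 ± 4.18, Lcn2 at 4.04 ± 2.03, Orm3 at 3.62 ± 2.86, Cp at 2.61 ± 0.585 and Saa3 at 0.295 ± 0.0237 (SD, n = 3), with Orm2 at 0. There the ranges of mean ± SD of neighbours from Serpina3n to Cp overlapped, and the range of Saa3 lay below that of Cp. Young burn put Serpina3n first at 15.9 ± 10.9 CPM per kb, then Hp at 12 ± 9.60, Orm1 at 8.89 ± 11.9 and Lcn2 at 6.34 ± 3.18 (SD, n = 3). Cp at 3.39 ± 0.671, Orm3 at 2.45 ± 3.00, Saa3 at 0.498 ± 0.606 and Orm2 at 0.313 ± 0.360 CPM per kb followed (SD, n = 3), and no neighbours in that order differed beyond their spread. Lcn2 and Orm1 lay below Cp in both sham groups and above it in both burn groups by their means, except that without young burn replicate 2 Orm1 was at 2.03 CPM per kb in young burn and Cp at 3.03.

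Age was tested directly. In sham muscle, 0 of the 5 members that could be compared passed the threshold between young and adult mice in either set of libraries (edgeR quasi-likelihood test; 3.76% of all genes in the 12 libraries and 11.8% in the 11 were called, 2505 genes had an unadjusted p under 0.05 in the 12, and DESeq2 called 0 members). The log2 difference, young minus adult sham, was -0.14 (SE 0.86, adjusted p = 0.95) for Lcn2, -0.73 (SE 0.65, adjusted p = 0.574) for Serpina3n, 0.26 (SE 0.21, adjusted p = 0.526) for Cp, -0.13 (SE 0.80, adjusted p = 0.949) for Hp and -0.38 (SE 2.06, adjusted p = 0.942) for Orm1. The wide errors of Orm1 and Lcn2 come with sham counts of 0 to 7, so that a difference of several fold would not be detectable. Orm3 was at 0 in both sham groups and allows no comparison.

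Among burned mice, 0 of 6 members passed the threshold between the ages in the 12 libraries, where 10.8% of all genes did. The choice of the genes by their burn values touches this comparison and the interaction. Orm1 was called lower in young burn in the 11 libraries, with a log2 difference of -2.30 (SE 0.63, adjusted p = 0.0195, edgeR quasi-likelihood test), 1 of 6 members beside 20.7% of all genes. In those libraries Orm1 passed the filter on low counts through adult burn, at 24, 52 and 53 counts, beside 5 and 11 in young burn. The gene was thus admitted by the group in which it is higher, so the call is no independent support for that direction. In the 12 libraries the Orm1 difference was -0.15 (SE 0.75, adjusted p = 0.917), so the result rested on whether young burn replicate 2, with 96 counts, was included. Orm3 moved the same way, from -0.51 (SE 0.81, adjusted p = 0.725) to -2.21 (SE 0.82, adjusted p = 0.0765), without passing the threshold. In the 11 libraries Orm3 passed the filter through adult burn alone (5, 13 and 28 counts, beside 4 and 2 in young burn). Its direction there is thus partly set by the filter and adds no support to that of Orm1. Lcn2 differed by 0.65 (SE 0.37, adjusted p = 0.255) in the 12 libraries and by 0.18 (SE 0.33, adjusted p = 0.723) in the 11. Serpina3n was at 0.25 (SE 0.41, adjusted p = 0.725) and -0.39 (SE 0.33, adjusted p = 0.416), and Cp at 0.38 (SE 0.19, adjusted p = 0.215) and 0.22 (SE 0.18, adjusted p = 0.41). Hp was at -0.03 (SE 0.66, adjusted p = 0.982) and -0.91 (SE 0.62, adjusted p = 0.313).

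The difference between the burn response of young and adult mice (interaction term) was past the threshold for 0 of the 5 members with sham counts in either set, beside 0.0% of all genes in the 12 libraries and 0.0949% in the 11. In the 12 libraries 893 genes had an unadjusted p under 0.05, and DESeq2 called 1 gene, no member. The largest interaction in the 11 libraries was that of Orm1, at -1.91 (SE 1.56, adjusted p = 0.666), with that of Lcn2 at 0.33 (SE 0.81, adjusted p = 0.919). The age difference of Orm1 after burn was therefore not shown to be a difference in the response to the burn.

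**Figure D2:**
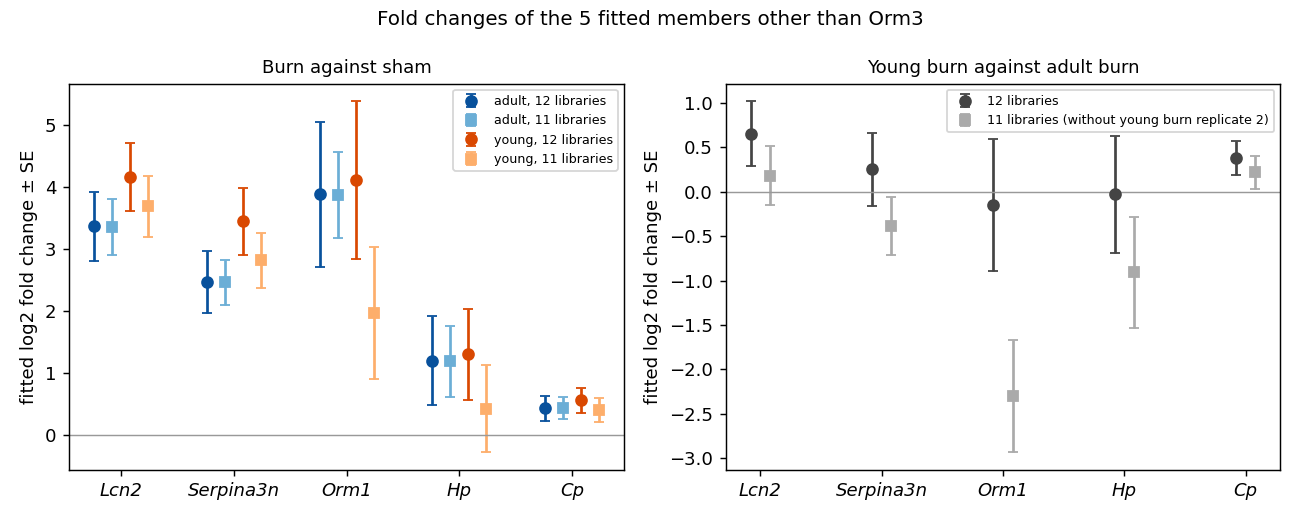
Fitted log2 fold change with its approximate SE, taken from the F of the test (vertical axis), for the 5 fitted members other than Orm3, which had no sham counts, burn against sham on the left by age and young burn against adult burn on the right, in 12 libraries (circles) and in the 11 without young burn replicate 2 (squares). Orm1 moves most when that library is left out, from 4.11 to 1.97 in young burn against young sham and from -0.15 to -2.30 between the burn groups.

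Other genes of the acute phase were measured with the members. Of 24 further genes for positive acute-phase proteins, 9 had 0 counts in all 12 libraries, among them the 3 fibrinogen genes (Fga, Fgb and Fgg) and 3 alpha-1-antitrypsin genes (Serpina1a, Serpina1b and Serpina1c), and only 5 passed the filter. None of the 5 was called in adult burn in either set. In young burn Lbp, which codes for the protein that hands bacterial lipopolysaccharide to its receptor, had a log2 fold change of 1.04 (SE 0.22, adjusted p = 0.0447) in the 11 libraries and 1.08 (SE 0.21, adjusted p = 0.0623) in the 12. Lbp was also higher in young burn than in adult burn, by 0.70 on the log2 scale (SE 0.21, adjusted p = 0.0446) in the 12 libraries and 0.65 (SE 0.21, adjusted p = 0.0388) in the 11. C3, the central complement component, went the other way with age: it was lower in young than in adult sham by a log2 difference of -1.60 (SE 0.23, adjusted p = 0.00393) and in young than in adult burn by -1.72 (SE 0.23, adjusted p = 0.00104) in the 12 libraries. In the 11 these were -1.61 (SE 0.22, adjusted p = 0.000563) and -1.67 (SE 0.24, adjusted p = 0.000464). The median log2 fold change of the 5 genes was 0.33 in adult burn and 0.61 in young burn, beside 0.0 and 0.01 over all genes tested.

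The plasma level of negative acute-phase proteins falls after injury. Of 8 genes for them 6 had a count and 3 passed the filter (Trf, Rbp4 and Fetub), with none called. Alb had at most 5 counts in a library. In the 12 libraries Trf had a log2 fold change of 0.50 (SE 0.25, adjusted p = 0.72, edgeR quasi-likelihood test) in adult burn and 0.46 (SE 0.25, adjusted p = 0.311) in young burn. Rbp4 was at 0.415 (SE 0.46, adjusted p = 0.875) and -0.0355 (SE 0.44, adjusted p = 0.97). Fetub, a gene for a liver fetuin that is listed among the negative acute-phase proteins and was picked after its values were seen, had 1, 2 and 2 counts in adult sham, 9, 12 and 22 in adult burn, 2 in each young sham and 5, 17 and 16 in young burn. Its burn group lay higher without overlap in each age, as 10.3% of all genes tested did in adults and 10.5% in young mice. Its log2 fold change in the 12 libraries was 2.76 in adults (SE 0.65, adjusted p = 0.492) and 2.33 in young mice (SE 0.64, adjusted p = 0.0995). Fetub passed the filter on low counts only through the burn groups, in which it is higher, so these values are no support for that direction.

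The upstream cytokines were near the limit of detection. Il6 had at most 2 counts in a library, Tnf at most 3 and Il1b at most 6, and 7 of the 16 cytokine and receptor genes passed the filter, with 0 called with burn in either age or set (at an unadjusted p under 0.05, 1 in adult and 4 in young mice, 12 libraries). The receptor subunits were present: Il6st, the shared signalling chain gp130, was at 201 ± 22.5 CPM in adult sham and 218 ± 17.7 in adult burn, and Il6ra at 12.2 ± 2.46 and 19.7 ± 1.02 CPM (SD, n = 3).

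All 15 transcription factor and feedback genes passed the filter. Stat3 itself, the factor activated by interleukin-6, had 162 to 220 counts in young sham and 377 to 468 in young burn, with a log2 fold change of 0.84 (SE 0.12, adjusted p = 0.0277) in the 12 libraries and 0.77 (SE 0.12, adjusted p = 0.0134) in the 11. It was also higher in young burn than in adult burn, by 0.46 (SE 0.12, adjusted p = 0.03) in the 12 libraries and 0.39 (SE 0.12, adjusted p = 0.0286) in the 11. Its adult burn value was 0.36 in both sets, with an SE of 0.12 and an adjusted p of 0.614 in the 12 and an SE of 0.11 and an adjusted p of 0.137 in the 11. Cebpd, a C/EBP factor of the acute phase, had 117, 143 and 163 counts in adult sham and 286, 558 and 423 in adult burn, a log2 fold change of 1.31 (SE 0.29, adjusted p = 0.0443) in the 11 libraries and 1.32 (SE 0.36, adjusted p = 0.555) in the 12. In young mice Cebpd had 198, 90 and 110 counts in sham and 166, 346 and 175 in burn, a log2 fold change of 0.10 (SE 0.34, adjusted p = 0.918) in the 11 libraries. Between the burn groups Cebpd was lower in young mice by a log2 difference of -1.20 (SE 0.32, adjusted p = 0.0171) in the 11 libraries, as Orm1 was, and by -0.82 (SE 0.35, adjusted p = 0.141) in the 12. The interaction of Stat3 was 0.48 (SE 0.18, adjusted p = 0.683) in the 12 libraries and that of Cebpd -1.22 (SE 0.44, adjusted p = 0.352) in the 11, neither past the threshold. Cebpb, picked after its values were seen, had 769 counts in young burn replicate 2 and 127 to 308 in the other 11 libraries.

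**Figure D3:**
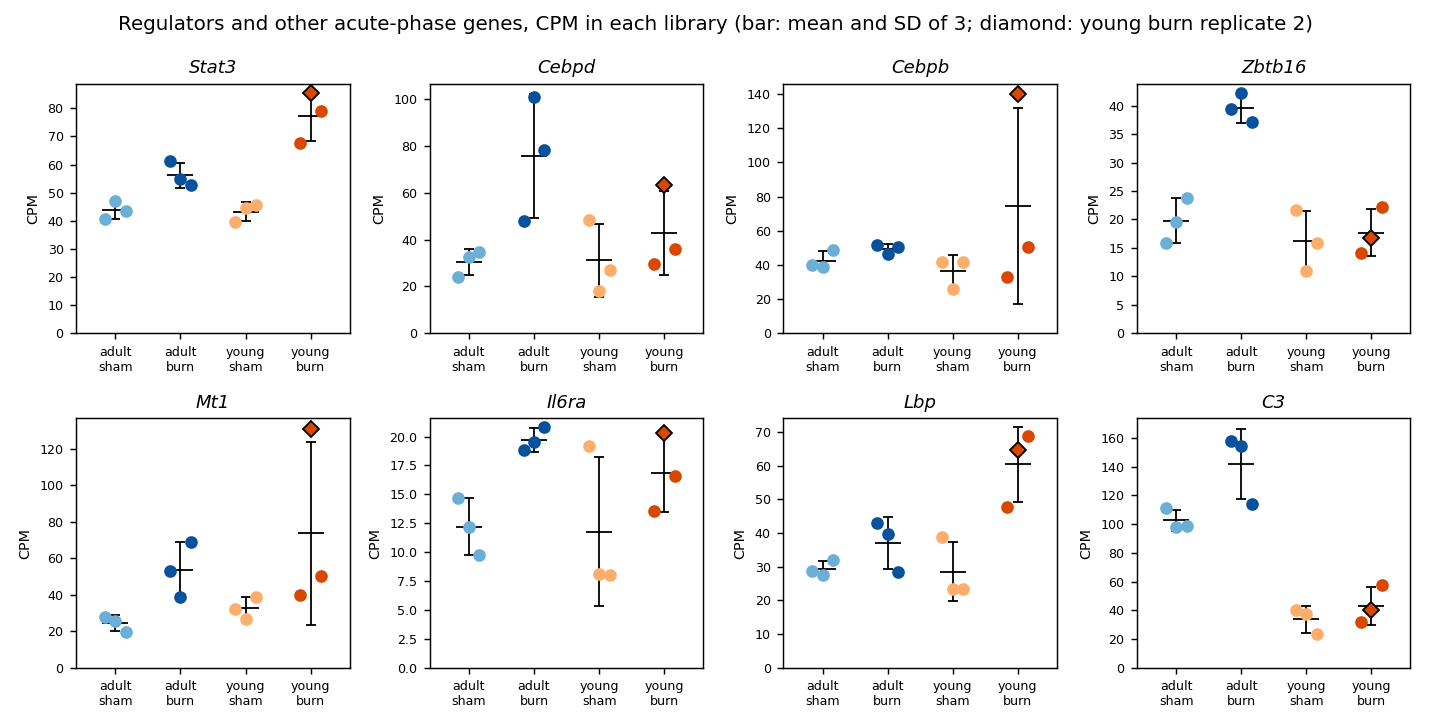
CPM (vertical axis, linear, 1 scale per gene) of Stat3, Cebpd, Cebpb, Zbtb16, Mt1, Il6ra, Lbp and C3 in each library, by group; bars give the mean and SD of 3 mice and the diamond is young burn replicate 2. Stat3 separates young burn from young sham, Cebpd and Zbtb16 are highest in adult burn by their group means, and Cebpb and Mt1 are high in young burn replicate 2.

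Of 12 genes known to answer to glucocorticoids, Zbtb16 and Mt1 were called in adult burn in the 11 libraries. Zbtb16, a transcriptional repressor, had a log2 fold change of 1.00 (SE 0.20, adjusted p = 0.0283), and Mt1, a metallothionein that binds zinc and copper, of 1.13 (SE 0.20, adjusted p = 0.0184). Neither was called in the 12, at 1.01 (SE 0.22, adjusted p = 0.48) for Zbtb16 and 1.13 (SE 0.37, adjusted p = 0.603) for Mt1. In young burn against young sham 0 of the 12 were called in either set. There Zbtb16 was at 0.18 (SE 0.25, adjusted p = 0.784) in the 11 libraries, and Mt1 was at 1.17 (SE 0.37, adjusted p = 0.121) in the 12 and 0.47 (SE 0.22, adjusted p = 0.307) in the 11. The median log2 fold change over the 12 genes in the 11 libraries was 0.64 for adults and 0.02 for young mice, beside 0.0 and 0.01 over all genes, and in the 12 it was 0.64 and 0.25. Between the burn groups 4 of the 12 were lower in young mice in the 11 libraries (Zbtb16, Klf9, Pdk4 and Fkbp5), where 20.7% of all genes were called in either direction, and 3 in the 12 (Zbtb16, Klf9 and Pdk4), where 10.8% were, with Zbtb16 at -1.17 (SE 0.22, adjusted p = 0.00728) in the 12. The interaction was past the threshold for none of the 12 in either set (at an unadjusted p under 0.05, 3 were lower in the 12 libraries and 5 in the 11).

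Of the 9 receptors and partners of the member proteins 8 passed the filter, and 0 were called with burn in either age or set. Slc22a17, a receptor for lipocalin-2, was at 5.22 ± 0.771 CPM in adult sham and 4.82 ± 0.545 in adult burn, and Lrp2, another receptor for lipocalin-2, had at most 3 counts in a library. Cd163, the macrophage receptor for haptoglobin bound to haemoglobin, was at 14.5 ± 1.64 CPM in adult sham, 23.5 ± 4.88 in adult burn, 20.9 ± 6.01 in young sham and 33.6 ± 12.7 in young burn (SD, n = 3). Hmox1, which breaks down the haem so taken up, had a log2 fold change of 1.74 (SE 0.51, adjusted p = 0.107) in young burn in the 12 libraries and 0.47 (SE 0.16, adjusted p = 0.173) in the 11. Of 13 genes for iron and copper handling 12 were tested and 0 were called with burn. At an unadjusted p under 0.05 in the 12 libraries, 2 were higher and 1 lower in adult burn, and 2 were higher and 0 lower in young burn. Slc40a1, the iron exporter ferroportin that works with the ferroxidase ceruloplasmin, was lower in young than in adult mice, by a log2 difference of -0.97 (SE 0.24, adjusted p = 0.0397) in sham and -0.99 (SE 0.23, adjusted p = 0.0168) in burned muscle in the 12 libraries, and by -0.98 (SE 0.22, adjusted p = 0.0119) and -0.90 (SE 0.23, adjusted p = 0.0145) in the 11.

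Markers of cell types that could supply these transcripts were set beside the members. In bulk tissue, more cells of a type and more RNA per cell cannot be told apart. Of 8 hepatocyte markers 4 were at 0 in every library (Apoa1, Apob, Cyp3a11 and Tat), and the summed count of the list was 1 to 3 in adult sham, 1 to 7 in adult burn, 1 to 2 in young sham and 0 to 10 in young burn. The neutrophil list of 11 genes summed to 2.33 to 6.41 CPM in adult sham, 6.87 to 15.4 in adult burn, 2.23 to 4.14 in young sham and 9.81 to 27.4 in young burn, so that both burn groups lay above their sham groups, as for Lcn2 and Serpina3n. Most of it was S100a8 and S100a9, genes also expressed by monocytes, whereas Ly6g was at 0 in every library and Camp had at most 1 count. Within groups the members followed the list unequally. Pearson's r of the deviations of the log2 values from the group means was 0.073 for Lcn2, 0.268 for Orm3 and 0.368 for Orm1. It was 0.469 for Cp, 0.569 for Hp and 0.64 for Serpina3n, all given as a description. S100a9 had a log2 fold change of 2.43 (SE 0.51, adjusted p = 0.0447) in young burn in the 11 libraries and 1.81 (SE 0.43, adjusted p = 0.0615) in adult burn. It was called in neither age in the 12, at 2.34 (SE 0.47, adjusted p = 0.0623) and 1.81 (SE 0.42, adjusted p = 0.492). The macrophage list of 8 genes summed to 308 to 373 CPM in adult sham and 372 to 496 in adult burn, and to 292 to 404 in young sham and 520 to 879 in young burn. Its members Lyz2, C1qa, C1qb and C1qc were called in young burn in the 11 libraries, beside 0.664% of all genes, C1qa with a log2 fold change of 1.24 (SE 0.18, adjusted p = 0.00898). In the 12 libraries 0 of 8 were called there, with C1qa at 1.08 (SE 0.19, adjusted p = 0.0571), and 0 of 8 were called in adult burn in either set. Between the burn groups 6 of the 8 (Adgre1, Lyz2, Mrc1, C1qa, C1qb and C1qc) were higher in young mice in both sets. There 10.8% of all genes were called in either direction in the 12 libraries and 20.7% in the 11. Krt5, Krt14 and Krt1 of the keratinocyte list of 5 were at 0 in every library, and the list summed to 24 to 55 counts, nearly all from Krt10, a keratin of the upper epidermis. Krt10 was at 5.37 ± 0.181 CPM in adult sham, 5.72 ± 0.859 in adult burn, 10.3 ± 0.916 in young sham and 6.02 ± 1.33 in young burn (SD, n = 3). It was higher in young than in adult sham by 0.94 on the log2 scale (SE 0.21, adjusted p = 0.0276), and its young burn against young sham value was -0.78 (SE 0.20, adjusted p = 0.0881), both in the 12 libraries. The part of keratinocytes in the members' values was not tested. Among endothelial markers Kdr, the VEGF receptor, was lower in adult burn in the 11 libraries by a log2 fold change of -0.70 (SE 0.15, adjusted p = 0.0374), which was not called in the 12 (-0.70, SE 0.17, adjusted p = 0.544). The other 4 endothelial markers (Pecam1, Cdh5, Tek and Emcn) lay between -0.07 and 0.02 in adult burn. Col1a1 and Col3a1 of the fibroblast list were higher in young mice in both the sham and the burn comparison. The part of neutrophils and macrophages in the members' values was not tested.

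Hp varied with the adipocyte list from mouse to mouse. The 6 adipocyte markers summed to 317, 13.8 and 44.3 CPM in adult sham replicates 1, 2 and 3, in which Hp was at 19.6, 1.59 and 4.03 CPM. In adult burn the sums were 316, 49.0 and 117 CPM and Hp was at 21.0, 10.3 and 27.7 CPM. The sums were 97.2, 107 and 22.2 CPM in young sham, with Hp at 11.4, 8.91 and 2.93 CPM, and 53.4, 127 and 96.7 CPM in young burn, with Hp at 6.99, 36.5 and 14.1 CPM. Within each of the 4 groups the mouse with the lowest sum had the lowest Hp. The mouse with the highest sum did not have the highest Hp in adult burn and in young sham. Across the 12 libraries Pearson's r of the log2 values was 0.863, and it was 0.895 for the deviations from the group means, which share the library and its depth and are given as a description. The same deviations gave 0.11 for Lcn2, 0.174 for Serpina3n, -0.051 for Orm3, 0.329 for Cp and 0.447 for Orm1. The deviations of Hp also gave 0.586 with the hepatocyte list, which held few counts, and 0.569 with the neutrophil list. The adipocyte list was not called with burn for any of its genes, and its part in the Hp values was not tested.

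**Figure D4:**
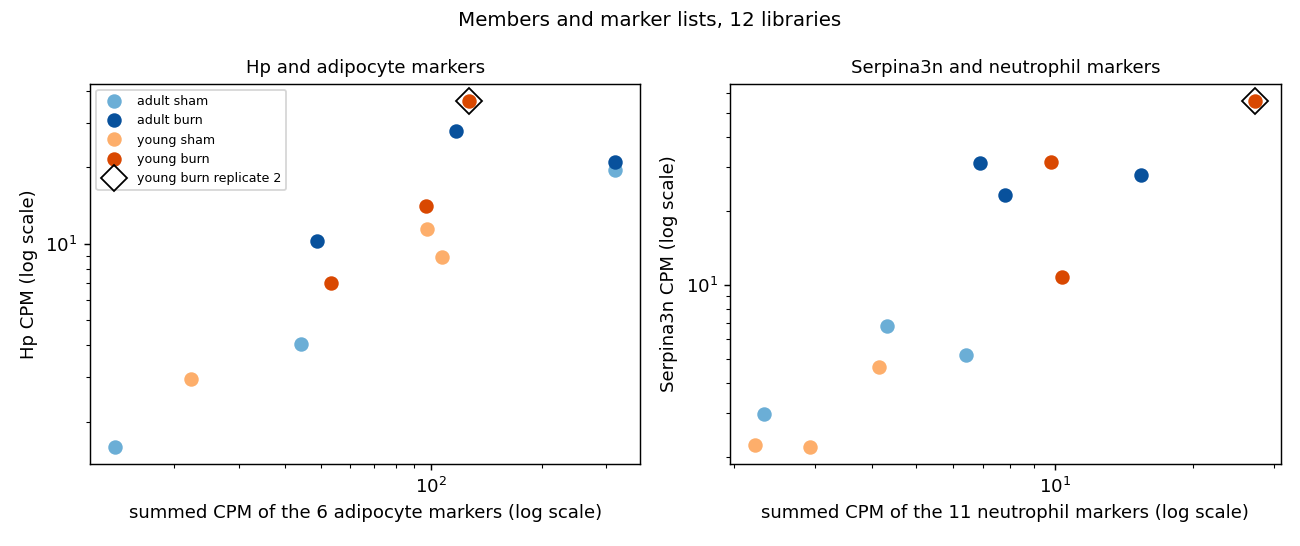
Left, CPM of Hp (vertical axis, log scale) against the summed CPM of 6 adipocyte markers (horizontal axis, log scale) in 12 libraries; right, CPM of Serpina3n against the summed CPM of 11 neutrophil markers, both log scales. Hp is lowest in the mouse with the lowest adipocyte sum of each group, down to 1.59 CPM at a sum of 13.8. The highest values do not match in adult burn and young sham. Serpina3n and the neutrophil sum are both higher in burned than in sham mice of each age. Among the fitted members Serpina3n followed this sum most closely within groups (r = 0.64 for the deviations from the group means) and Lcn2 least (0.073).

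The members resembled each other to different degrees over the 12 libraries. Pearson's r of log2 CPM was 0.923 for Lcn2 with Serpina3n and 0.912 for Orm1 with Orm3, 0.581 for Orm3 with Cp and 0.634 for Lcn2 with Hp; without young burn replicate 2 these were 0.901, 0.879, 0.393 and 0.535. All of these values share the choice of genes by their burn response. Outside the 8 genes, those most like Lcn2 were Pnmt (r = 0.954), Cd63 (0.952) and Ehd4 (0.933), and those most like Serpina3n were Apod (0.967), Aspscr1 (0.957) and 2410006H16Rik (0.952). Those most like Orm1 were Cd63 (0.935), Ap2m1 (0.926) and Rrp36 (0.922), and those most like Orm3 were Psmc2 (0.924), Cd63 (0.923) and Ptges3 (0.922). Hp was most like Pck1 (0.883), Senp3 (0.870) and Slc1a5 (0.868), and Cp was most like Atp23 (0.950), Ctps2 (0.920) and Ankrd13a (0.898). Pck1 codes for a gluconeogenic enzyme that fat tissue also expresses, and Cd63, which appears in 3 of these lists, for a membrane protein of late endosomes and exosomes.

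Together the 8 genes took 25.0 to 50.4 CPM of the unscaled total count in adult sham, 87.4 to 100.3 in adult burn, 21.1 to 40.1 in young sham and 56.5 to 217 in young burn. The adult burn mice were alike in this sum, and the young burn mice were not: replicates 1 and 3 stood at 56.5 and 98.6 and replicate 2 at 217.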

How the data were processed

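RNA was taken from gastrocnemius of 12 mice, 3 per group, and each gave 1 poly-A mRNA library. Per the labels, the authors aligned reads to GRCm38 with STAR 2.7.5c and deposited whole-number gene counts (Gencode annotation, no normalization). No source used here states the strand setting. The small RNA counts were not used here. Groups came from the sample labels. Gene symbols and positions were taken from Gencode M21 by identifier (260 of 55401 identifiers had no match).

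Counts were scaled by TMM in edgeR 4.0.16 (R 4.3.3), genes with low counts were removed (filterByExpr, minimum count 10), and 12408 genes were tested in the 12 libraries (12651 in the 11) with the quasi-likelihood test, 1 mean per group, called at an adjusted p under 0.05 (Benjamini-Hochberg). Each SE is the absolute log2 fold change divided by the square root of the quasi-likelihood F, which only approximates a standard error. CPM used the TMM library sizes, and correlations used log2 CPM with a prior count of 2. The labels do not say that replicates came from separate litters or days, so p-values measure the spread between these mice. The members and gene lists were chosen with earlier results of these data known. Named genes are the 8 members, the list genes called with burn (at most 4 per list and comparison), the most abundant markers and the 3 genes most like each member, and further genes where said. Alternatives were library-size and RLE scaling, DESeq2 1.42.0, no filter, the compared groups alone, each library left out and a replicate block. DESeq2 without young burn replicate 2 was added after the data were seen. The fit was tested on simulated counts.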

Additional observations from a re-analysis of the deposited data

How the results depend on the processing

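The burn comparisons chose the members, so their counts are set beside those over all genes and nothing is read from them. In adult burn against adult sham, 0 of the 8 members and 1 of all genes were called with all 12 libraries. With no filter on low counts these were 5 and 285, with only the groups compared 3 and 115, with DESeq2 2 and 7, with the replicate block 1 and 3, and with DESeq2 without young burn replicate 2 1 and 211. When each library was left out in turn 0 to 4 members were called (2 of 3 genes without young burn replicate 1, 4 of 115 without young burn replicate 2, 0 members in the other 10 cases). In young burn against young sham 2 members and 8 genes were called, against 6 and 1095 with no filter, 0 and 1 with only the groups compared, 1 and 191 with DESeq2 without young burn replicate 2, and 0 to 3 members when a library was left out (0 without young sham replicate 2 or 3; 3 of 697 genes without young burn replicate 1; 2 without adult sham replicate 2 or 3 or young burn replicate 2; 1 otherwise), with 1 to 697 genes. Over all genes, DESeq2 on the 12 libraries called 443 in young burn against young sham, and library-size scaling 615. In young burn against adult burn 0 members were called, and 0 to 1 when a library was left out, the 1 being Orm1 without young burn replicate 2. The replicate block changed no other count. The labels do not say whether same-numbered mice were paired. The correlations of their deviations from the group means ran from -0.197 to 0.153, which shows no strong pairing but cannot exclude it. The cause of these changes was not tested.

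Uncalled age differences changed sign in places. With library-size scaling, which put the median of all genes at 0.125 in young burn against adult burn, Orm1 was at 0.032 and Hp at 0.13 there. With DESeq2 without young burn replicate 2, Serpina3n was at -0.40 there, and the interaction was -1.84 for Orm1, -0.78 for Hp and -0.043 for Cp. With each library left out, log2 differences ran, in sham, from -0.70 to 0.13 for Lcn2, -0.61 to 1.45 for Hp and -4.39 to 1.58 for Orm1. Between the burn groups they ran from -0.39 to 0.67 for Serpina3n, -2.30 to 0.38 for Orm1, -2.21 to 0.28 for Orm3 and -0.91 to 0.37 for Hp. The interaction ran from -1.91 to 4.24 for Orm1, -1.48 to 0.57 for Hp and -0.0255 to 0.31 for Cp. Depth limits Orm2, Orm3, Saa3 and the sham values of Orm1 and Lcn2.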
